A study of Homo sapiens with 2 samples.

Results

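The genes described here were 45 named double-strand break repair, Fanconi anaemia and R-loop genes of the 54261 genes listed in the count table. They were taken from a list by symbol and role, the rule used no measured value, and all 45 symbols were found. The list was drawn up with earlier results of these data known. They fell into 8 groups by role: checkpoint kinases, break signalling and resection, homologous recombination, the Fanconi core complex, the Fanconi ID complex with its downstream enzymes, RecQ helicases, end joining with PARP1, and R-loop enzymes. Gene-level RNA was measured by RNA-seq in RKO, a human colon carcinoma cell line, in 1 library transfected with the control siRNA si-NC and 1 library transfected with si-SRSF2, an siRNA against the splicing factor SRSF2. Both libraries came from the same line, and the labels named no other treatment and no time after transfection. With 1 library per group, no difference had a replicate check and no test between the conditions was possible. The 95% Clopper-Pearson intervals given with the ratios cover counting error only, so they compare these 2 libraries and not the 2 conditions.

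Double-strand breaks are sensed by the MRE11, RAD50 and NBN complex and signalled by the kinases ATM and ATR, after which the ends are either joined directly by the Ku and DNA-PK machinery or resected and repaired from the sister chromatid by homologous recombination. The Fanconi anaemia pathway handles crosslinks between the DNA strands: a core complex attaches ubiquitin to the FANCD2 and FANCI pair, which then recruits nucleases and recombination proteins. R-loops are hybrids of nascent RNA with template DNA that can turn into breaks, and RNase H enzymes and helicases take them apart. The question put to these data was whether the mRNA of such genes differed in level between cells with and without the SRSF2 siRNA.

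The siRNA sequences are shown because they define the 2 groups and because short matches to a siRNA can lower other transcripts. Both are written 5′ to 3′ as the study lists them, and the capitals mark the 7 bases that are identical to a target of the seed of the paired strand.
siNC: uucuucgaacgugucacgutt
si-SRSF2: uccaaauccagGUCGCGAutt
The listed si-SRSF2 strand matched the SRSF2 reference transcript from base 769, and 0 of the 45 genes held a full match in either direction. The 7-base site GTCGCGA, which pairs with the seed of the strand aimed at SRSF2, was in the 3′ UTR of 0 of the 45 genes, against 0.259% of the expressed genes compared that have an annotated 3′ UTR. The site GATTTGG, for the seed of the opposite strand, was in the 3′ UTR of 5 of the 45 genes (11.1%), against 14.8% of those genes. These were MDC1, RNF8, RAD51D, WRN and AQR. The 4 of them that were measured had log2 ratios between −0.03 and 0.31, none with its whole interval below 0. The measured genes of the 45 without this site had a median of −0.08. Whether short matches lowered any of the 45 transcripts was not tested, and the seeds of siNC were not searched.

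In si-NC, 19931360 counts fell on 19882 genes, and in si-SRSF2 14512802 counts fell on 19467. Levels are given as CPM, the counts of a gene per 1000000 counts of its library after scaling of the library sizes. The comparison took in the 12620 genes whose mean over both libraries was 1 CPM or more, which are called the genes tested although no test was run on them. A log2 ratio is that of si-SRSF2 over si-NC after 0.5 CPM was added to both levels, and its interval was computed from the counts without that addition. A count of 0 allows up to 3 counts, which is 0.151 CPM for si-NC and 0.207 CPM for si-SRSF2. SRSF2 itself had 98.5 and 49.1 CPM, with an interval of the log2 ratio from −1.13 to −0.88. KRT8, KRT18, EPCAM and CDX2, markers of epithelium and colon, were detected in both libraries. KRT8 was higher in si-SRSF2, at 27.4 and 42.6 CPM (log2 ratio 0.62, 0.47 to 0.80), and the other 3 had intervals that held 0, while KRT19, VIL1, LGALS4 and CDH1 had between 0 and 10 counts. Of 10 markers of blood, endothelial, stromal and liver cells, 9 were below the filter and ACTA2 had 24 and 41 counts (log2 ratio 0.96, 0.47 to 2.02). The part of these marker differences in the values of the repair genes was not tested.

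Of the 45 genes, 44 passed the filter on low values, and their counts ran from 187 to 17024 in si-NC and from 170 to 11151 in si-SRSF2. The lowest mean level among them was 10.5 CPM. No gene was 1.5-fold lower or 1.5-fold higher in the si-SRSF2 library: the count was 0 of 44 in each direction. Over all genes tested, 3.52% were at least 1.5-fold lower and 4.18% at least 1.5-fold higher. Among the 9464 genes whose mean was 10 CPM or more, the range in which the 44 genes lay, these shares were 1.69% and 1.49%, so a count of 0 in a list of 44 was close to the background. The median log2 ratio of the 44 genes was −0.03, with quartiles of −0.18 and 0.06 and a range from −0.56 to 0.31. The median of all genes tested was −0.02, with quartiles of −0.19 and 0.15.

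**Figure D1:**
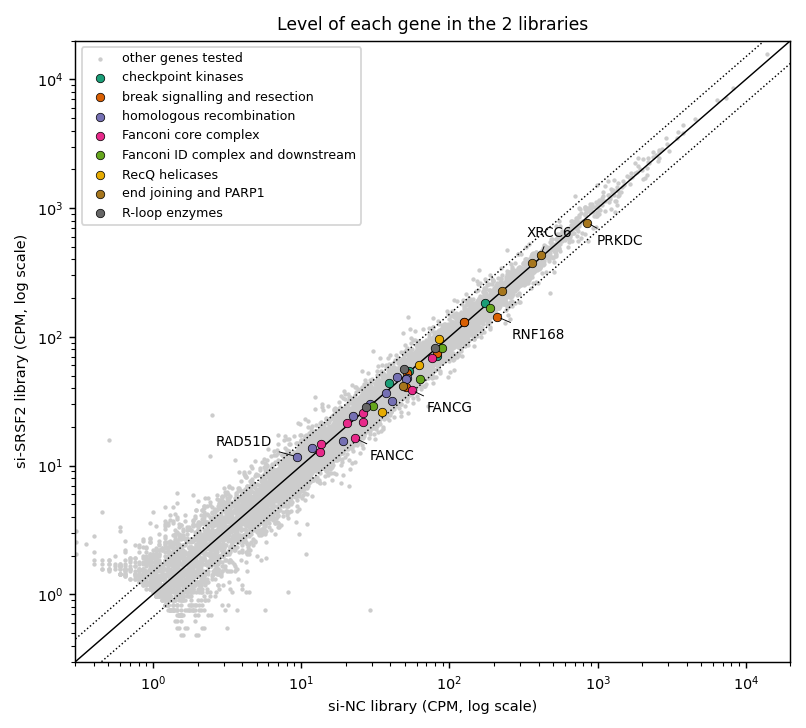
Level of each gene in the si-NC library (x axis, CPM, log scale) against the si-SRSF2 library (y axis, CPM, log scale), 1 library each. Grey points are the other genes tested, coloured points the 44 repair and R-loop genes by role group, the solid line equal levels and the dotted lines 1.5-fold lower and higher. Genes under 0.3 CPM in a library lie outside the axes. All 44 coloured points lie between the dotted lines, with RNF168, FANCG and FANCC closest to the lower one.

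Smaller differences were read against the counting error. The whole interval lay below 0 for 17 of the 44 genes (38.6%), against 26.7% of all genes tested, and above 0 for 5 genes (11.4%), against 21.0% of all genes tested. With upper-quartile factors in place of TMM, the count above 0 was 8. For the other 22 genes the interval held 0. These shares depend on read number as well as on the size of a difference, because genes with more reads have narrower intervals. The median gene of the 44 had 1024 counts in the control and 688 in si-SRSF2, against 667 and 474 over all genes tested, and what read number contributed to the shares was not tested. The log2 ratios of 32 of the 44 genes (72.7%) were within 0.2 of 0, as were 55.4% of all genes tested. For 8 genes more than 10% of the exon bases are shared with another gene, 3 on the same strand and 5 on the opposite one. These shares are those of the GENCODE 44 annotation. The study names Ensembl with the genome it aligned to, and its methods give no annotation for the counting. In the deposited counts, 16146 symbols have the LOC form of NCBI. It is therefore not known whether the annotation used for counting held the overlapping genes. The 36 measured genes without such sharing had a median of −0.05, with 15 whole intervals below 0 (41.7%) and 4 above (11.1%).

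**Figure D2:**
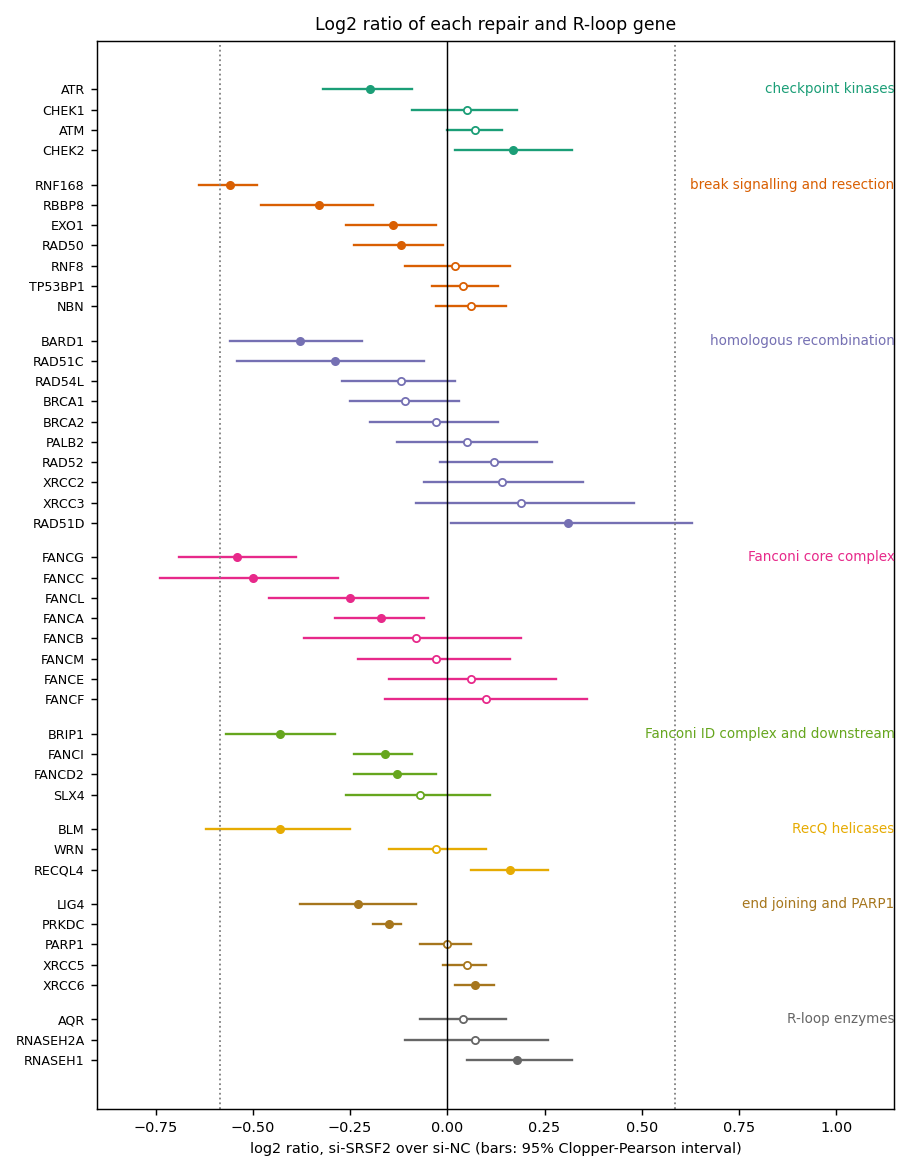
Log2 ratio of si-SRSF2 over si-NC for each of the 44 genes measured, grouped and coloured by role. Points are the ratios, bars the 95% Clopper-Pearson intervals (counting error only), filled points have an interval that leaves out 0, and dotted lines mark 1.5-fold. The 17 filled points on the lower side reach −0.56 (RNF168), and the 5 on the higher side reach 0.31 (RAD51D).

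The checkpoint kinases did not move in 1 direction. ATR, the kinase that responds to single-stranded DNA at resected ends and stalled forks, had 1644 counts under si-NC and 1038 under si-SRSF2, 82.5 and 71.5 CPM, and a log2 ratio of −0.20 (−0.32 to −0.09). CHEK2, the kinase that ATM activates after a break, was higher in si-SRSF2, with 780 and 640 counts, 39.1 and 44.1 CPM, and a ratio of 0.17 (0.02 to 0.32). ATM itself, which responds to break ends, had 174 CPM in the control and 183 after si-SRSF2, and CHEK1, the kinase downstream of ATR, 53.1 and 54.8 CPM. Both of these ratios, 0.07 and 0.05, had intervals that held 0, that of ATM only just, with a lower bound that rounds to 0.00. ATR was thus the lower one of the 4 and CHEK2 the higher one, and the summed level of the 4 kinases was 349 and 354 CPM. CHEK1 shares 13.4% of its exon bases with another gene on the opposite strand.

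Break signalling and resection held the member with the lowest ratio. RNF168, the ubiquitin ligase that modifies histone H2A around a break and so brings in 53BP1, is encoded on the minus strand of chromosome 3 (GRCh38, 196468783 to 196503768). It had 4210 counts in the control and 2074 in si-SRSF2, or 211 and 143 CPM. Its log2 ratio was −0.56 (−0.64 to −0.49), or 67.6% of the control level, and 3.84% of all genes tested had a lower ratio. RNF8, the ligase that acts before RNF168 on the same chromatin, was at 51.9 and 52.7 CPM, with a ratio of 0.02 (−0.11 to 0.16). TP53BP1, which encodes the 53BP1 protein and shares 28.8% of its exon bases with TUBGCP4 on the opposite strand, was at 126 and 130 CPM (0.04, −0.04 to 0.13). Thus only RNF168 of these 3 successive steps was lower beyond counting error, and 26.7% of all genes tested were lower in that way.

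Among the resection genes, RBBP8 encodes CtIP, which starts resection together with the MRE11, RAD50 and NBN complex. It had 1021 counts under si-NC and 589 under si-SRSF2, 51.2 and 40.6 CPM, with a log2 ratio of −0.33 (−0.48 to −0.19). EXO1, the nuclease that extends resection, had 82.1 and 74.3 CPM and a ratio of −0.14 (−0.26 to −0.03). RAD50 had 82.9 and 76.0 CPM (−0.12, −0.24 to −0.01) and NBN 125 and 130 CPM (0.06, −0.03 to 0.15). In GENCODE 44, 76.9% of the exon bases of RAD50 are shared with a readthrough gene on the same strand, which leaves the RAD50 value uncertain if that gene was counted too. MRE11, the nuclease of the complex, which is no member of the 45, was listed under an older symbol with 51.9 and 45.7 CPM (−0.18, −0.32 to −0.04). Of the 7 measured genes of this group, 4 had a whole interval below 0 (57.1%, against 26.7% of all genes tested) and 0 above it (against 21.0%), and the median ratio was −0.12. Without RNF168, the remaining 6 had a median of −0.05.

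MDC1, the adaptor that reads phosphorylated H2AX and recruits RNF8, had 0 counts in both libraries and therefore no ratio. Its gene spans 30699807 to 30717447 on chromosome 6. Its neighbours were listed in the same way. Of the 67 protein-coding genes of the table within 1 Mb of MDC1, 56 (83.6%) had 0 counts in both libraries, against 32.1% on the rest of chromosome 6 and 25.6% on the other chromosomes. TUBB, a tubulin gene used by nearly all cells, and FLOT1, GNL1, DHX16 and NRM were among those at 0. MDC1 is therefore described only as listed at 0, and these values carry no statement on its expression in RKO. DDX39B, an R-loop helicase gene outside the 45, was also listed at 0 in both libraries, and this likewise carries no statement on its expression in RKO.

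The 10 homologous recombination genes spread around 0, with a median log2 ratio of 0.01. Of the 10, 2 had a whole interval below 0, against 26.7% of all genes tested, and 1 above, against 21.0%. BARD1, the obligate partner of BRCA1, lies on chromosome 2 from 214725646 to 214809683 and had 821 counts in the control and 457 in si-SRSF2. That was 41.2 and 31.5 CPM, a ratio of −0.38 (−0.56 to −0.22). BRCA1 was at 51.5 and 47.7 CPM (−0.11, −0.25 to 0.03). Its interval held 0, so of the heterodimer BARD1 alone was lower beyond counting error. PALB2, which links BRCA1 to BRCA2, was at 29.0 and 30.0 CPM (0.05) and BRCA2, a mediator of strand exchange, at 37.4 and 36.6 CPM (−0.03), both with intervals that held 0.

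RAD51C, RAD51D, XRCC2 and XRCC3, which form small complexes that assist strand exchange, had ratios of different sign. RAD51C had 382 counts under si-NC and 226 under si-SRSF2, 19.2 and 15.6 CPM, with a log2 ratio of −0.29 (−0.54 to −0.06). RAD51D, on chromosome 17 from 35092221 to 35121522 on the minus strand, had 187 and 170 counts, 9.38 and 11.7 CPM, with a ratio of 0.31 (0.01 to 0.63). It was the highest ratio of the 44 genes, and it rested on the fewest counts. XRCC2 was at 22.2 and 24.5 CPM (0.14, −0.06 to 0.35) and XRCC3 at 11.9 and 13.7 CPM (0.19, −0.08 to 0.48). XRCC3 shares 76.7% of its exon bases with KLC1 on the opposite strand. The study names a stranded library kit, but the strand setting of the counting was not given in the sources used here. RAD52, which anneals single strands, was at 44.5 and 48.4 CPM (0.12), and RAD54L, a DNA translocase of recombination, at 51.1 and 46.9 CPM (−0.12), again with 0 inside both intervals. RAD54L shares 19.9% of its exon bases with a gene on the opposite strand.

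The Fanconi genes lay mostly on the lower side. Of the 12 genes in the core complex, the ID complex and the downstream group, 10 had a log2 ratio below 0. Among all genes tested, 6790 of 12620 did. The whole interval lay below 0 for 7 of the 12 (58.3%), against the background of 26.7%. None of the 12 had its interval above 0, where the background was 21.0%. Their median ratio was −0.15, while that of the 32 other measured members was 0.03. The 12 genes had a median of 567 counts in the control and 398 in si-SRSF2, against 667 and 474 over all genes tested. Within the 12, 5 of the 7 genes with a whole interval below 0 had between 1115 and 3760 control counts, while the 5 genes whose interval held 0 had between 270 and 609, and the part of read number in these counts was not tested. Added up, they had 628 and 545 CPM, a log2 ratio of −0.20 (−0.24 to −0.16). These are counts and medians of 2 libraries, and no test of the difference between the groups of genes was run.

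Within the core complex, 2 genes stood apart. FANCG, a scaffold subunit that binds FANCA, lies on chromosome 9 from 35073835 to 35080004 on the minus strand and had 1115 counts under si-NC and 558 under si-SRSF2. That was 55.9 and 38.4 CPM, a log2 ratio of −0.54 (−0.69 to −0.39). FANCC, a subunit on the same chromosome from 95099054 to 95426796, had 463 and 237 counts, 23.2 and 16.3 CPM, a ratio of −0.50 (−0.74 to −0.28). FANCL, the ubiquitin ligase subunit of the complex, was at 26.0 and 21.8 CPM (−0.25, −0.46 to −0.05), and FANCA at 76.9 and 68.2 CPM (−0.17, −0.29 to −0.06). FANCA shares 19.6% of its exon bases with ZNF276 on the opposite strand.

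The other 4 core genes had intervals that held 0. FANCB was at 13.5 and 12.7 CPM, with a log2 ratio of −0.08. FANCM, the DNA translocase that anchors the complex, was at 26.3 and 25.8 CPM (−0.03), FANCE at 20.4 and 21.4 CPM (0.06) and FANCF at 13.7 and 14.7 CPM (0.10). The intervals ran from −0.37 to 0.19 for FANCB, from −0.23 to 0.16 for FANCM, from −0.15 to 0.28 for FANCE and from −0.16 to 0.36 for FANCF, so a difference inside them was not detectable at this depth. Without FANCC and FANCG, the median of the core complex was −0.06 instead of −0.13, and its summed log2 ratio −0.10 (−0.18 to −0.03) instead of −0.22 (−0.29 to −0.16).

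In the ID complex and the downstream group, all 4 ratios were below 0, as were 6790 of the 12620 genes tested. FANCD2 had 1782 counts in the control and 1182 in si-SRSF2, 89.4 and 81.4 CPM, with a log2 ratio of −0.13 (−0.24 to −0.03). FANCI, its partner, had 3760 and 2446 counts, 189 and 169 CPM (−0.16, −0.24 to −0.09). BRIP1, the helicase also called FANCJ that binds BRCA1, lies on chromosome 17 from 61679139 to 61863559 and had 1261 and 682 counts. At 63.3 and 47.0 CPM its ratio was −0.43 (−0.57 to −0.29), the lowest of the 4. SLX4, the scaffold that holds the crosslink nucleases, was at 30.6 and 29.0 CPM (−0.07, −0.26 to 0.11).

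The 3 RecQ helicases differed from each other. BLM, which dissolves double Holliday junctions together with topoisomerase IIIα, had 698 counts under si-NC and 376 under si-SRSF2, 35.0 and 25.9 CPM, with a log2 ratio of −0.43 (−0.62 to −0.25). RECQL4, which also takes part in replication initiation, was higher, at 85.5 and 95.7 CPM (0.16, 0.06 to 0.26). WRN was at 62.1 and 61.0 CPM (−0.03, −0.15 to 0.10). The 2 levels of WRN, a helicase that also has exonuclease activity, differed by less than counting error.

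End joining held the most abundant members. PRKDC, the catalytic subunit of DNA-PK, had 17024 counts in the control and 11151 in si-SRSF2, 854 and 768 CPM, and its log2 ratio of −0.15 had the narrowest interval of the 44 genes (−0.19 to −0.12). XRCC6 and XRCC5, the Ku70 and Ku80 subunits that bind the ends, were at 415 and 435 CPM (0.07, 0.02 to 0.12) and at 361 and 373 CPM (0.05, −0.01 to 0.10). LIG4, the ligase of the pathway, was at 48.8 and 41.6 CPM (−0.23, −0.38 to −0.08). PARP1, which senses nicks and breaks, was at 228 CPM in both libraries (0.00, −0.07 to 0.06). PRKDC was thus at 89.9% and LIG4 at 85.2% of the control level, while neither Ku subunit was lower.

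The 3 R-loop enzymes had ratios above 0, as did 5830 of the 12620 genes tested. Of the 3, 1 had its whole interval above 0, against 21.0% of all genes tested. RNASEH1, the enzyme that cuts the RNA of RNA and DNA hybrids, had 987 counts under si-NC and 817 under si-SRSF2, 49.5 and 56.3 CPM, with a log2 ratio of 0.18 (0.05 to 0.32). RNASEH2A, the catalytic subunit of RNase H2, was at 27.2 and 28.7 CPM (0.07, −0.11 to 0.26), and AQR, a helicase of the spliceosome that also removes R-loops, at 79.5 and 81.6 CPM (0.04, −0.07 to 0.15). Added up, the 3 genes had 156 and 167 CPM, a log2 ratio of 0.09 (0.01 to 0.17). RNASEH1 shares 17.1% and RNASEH2A 53.3% of their exon bases with other genes on the same strand, and how reads on shared exons were counted was not given in the sources used here.

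**Figure D3:**
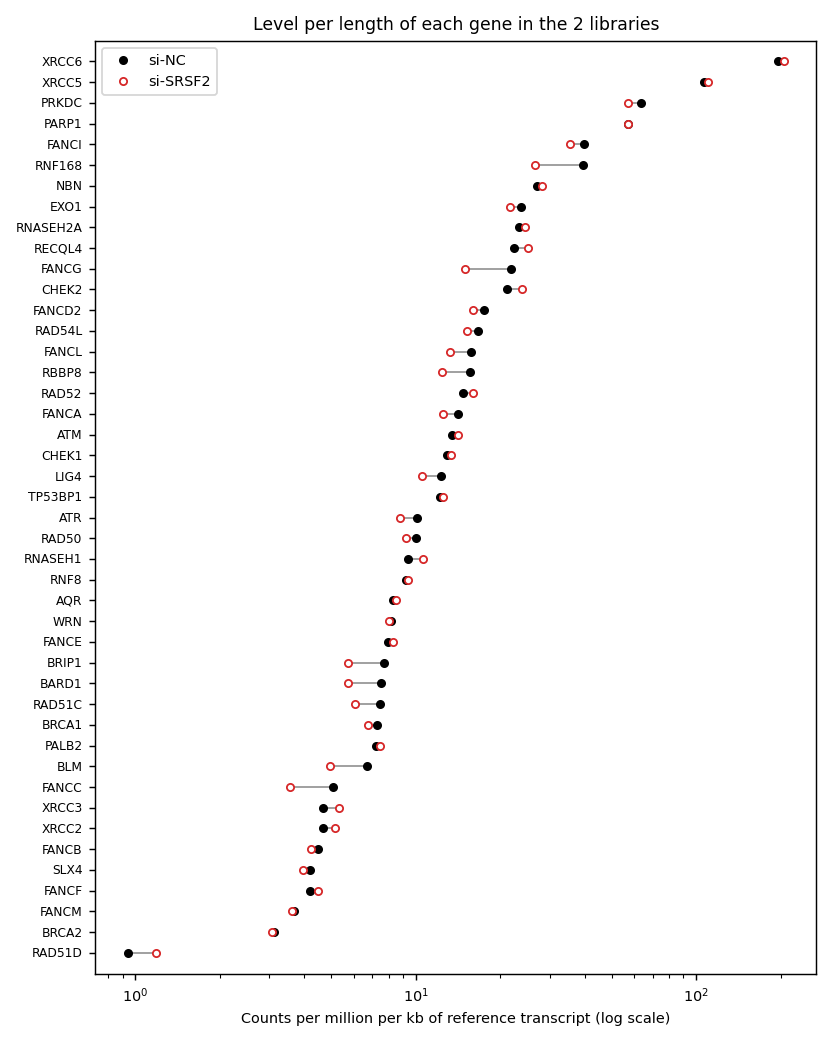
Level of each of the 44 genes per length, as CPM per kb of its reference transcript (x axis, log scale), in si-NC (filled black) and si-SRSF2 (open red), ordered by the si-NC level. XRCC6, XRCC5, PRKDC and PARP1 lead in both libraries, and RNF168, FANCG, FANCC, BRIP1, BARD1 and BLM show the widest gaps to the left.

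To compare genes with each other, CPM was divided by the length of the GENCODE reference transcript in kb. On this scale XRCC6 was highest, at 195 in si-NC and 205 in si-SRSF2, followed by XRCC5 at 107 and 110. PRKDC was at 63.5 and 57.1 and PARP1 at 57.3 in both, so these neighbours changed places between the libraries. The first Fanconi gene in the order was FANCI, at 39.9 and 35.6. RNF168 stood beside it in si-NC at 39.5 and at 26.7 in si-SRSF2. At the other end of the order were BRCA2, at 3.13 and 3.06, and RAD51D, at 0.941 and 1.18. The RAD51D counts were divided by a long reference transcript of 9.966 kb, which lowers this value.

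Genes whose products share a complex, or act in successive or related steps, were then compared directly, as the ratio of the counts of 1 partner to those of the other, which does not depend on the scaling of the libraries. In 5 of the 9 pairs the change in this ratio had an interval that left out 1. The share among other pairs of genes was not computed, so the count itself is not read as a result about partners. Per RNF8 count, RNF168 had 4.07 counts under si-NC and 2.71 under si-SRSF2, a change to 0.666 (0.597 to 0.742). The other changes were 0.708 (0.547 to 0.916) for RAD51C over XRCC3, which form the CX3 complex, 0.775 (0.679 to 0.884) for FANCG over FANCA, 0.824 (0.708 to 0.960) for BARD1 over BRCA1 and 0.880 (0.798 to 0.971) for RAD50 over NBN. The 2 pairs with the most reads showed narrow intervals around 1. XRCC6 over XRCC5 changed to 1.02 (0.968 to 1.07) and FANCD2 over FANCI to 1.02 (0.931 to 1.12). For RAD51D over XRCC2 and RNASEH2A over RNASEH1 the intervals, 0.872 to 1.46 and 0.788 to 1.09, also held 1.

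**Figure D4:**
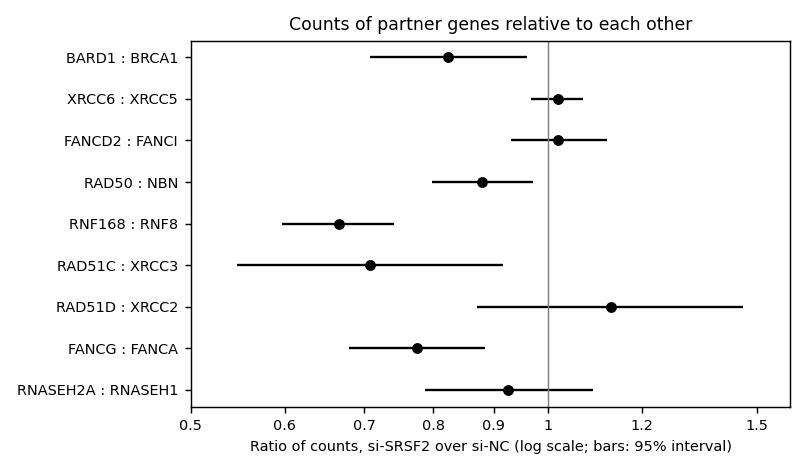
Change in the ratio of counts between partner genes, si-SRSF2 over si-NC (x axis, log scale), for 9 pairs written as first gene to second gene. Points are the ratios of ratios, bars the 95% intervals (counting error only), and the line at 1 marks no change. RNF168 to RNF8 lies farthest from 1 at 0.666, and the Ku pair and the FANCD2 to FANCI pair lie at 1.02.

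The other genes of these pathways gave a frame for the 45. Of 102 further genes in 5 lists, 99 were tested, and their median log2 ratio was −0.10, with 41 whole intervals below 0 (41.4%) and 16 above (16.2%), against the 26.7% and 21.0% of all genes. At the 1.5-fold limit, 8 were lower and 0 were higher, against 3.52% and 4.18% of all genes tested. The other recombination genes had the lowest median of the 5 lists, −0.21, with 14 of 25 whole intervals below 0 and 3 above. The other Fanconi genes had a median of −0.19, with 5 of 11 below and 1 above. The other end-joining genes had a median of 0.06, with 6 of 16 below and 2 above. The other R-loop genes had a median of −0.08, with 7 of 21 below and 7 above. By sign, 12 of their ratios were below 0 and 9 above, so they went both ways. The other checkpoint and signalling genes had a median of −0.08, with 9 of 26 below and 3 above.

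Among the further genes with a mean of 5 CPM or more, the lowest ratios were those of RMI1, a partner of BLM in junction dissolution, at 31.1 and 17.7 CPM (−0.79), RFWD3, a ubiquitin ligase of the Fanconi pathway, at 106 and 66.2 CPM (−0.68), and RAD54B, a relative of RAD54L, at 56.2 and 36.0 CPM (−0.63). The highest under the same limit were HELQ, a repair helicase, at 8.58 and 12.2 CPM (0.48), SAMHD1, a dNTP hydrolase, at 35.3 and 49.4 CPM (0.48), and THOC6, a subunit of the THO mRNA export complex, at 48.1 and 61.2 CPM (0.34).

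Genes of S phase were set beside these because many recombination and Fanconi genes are transcribed most in dividing cells. The 28 S phase genes had a median log2 ratio of −0.08, with 13 whole intervals below 0 (46.4%) and 5 above (17.9%), against 26.7% and 21.0% of all genes tested. Their median lay between that of the 12 Fanconi genes, −0.15, and that of the 32 other measured members, 0.03. Whether a difference in the share of cells in S phase took part in the values of the repair genes was not tested, and in bulk RNA fewer cells of a phase and less RNA per cell cannot be told apart.

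**Figure D5:**
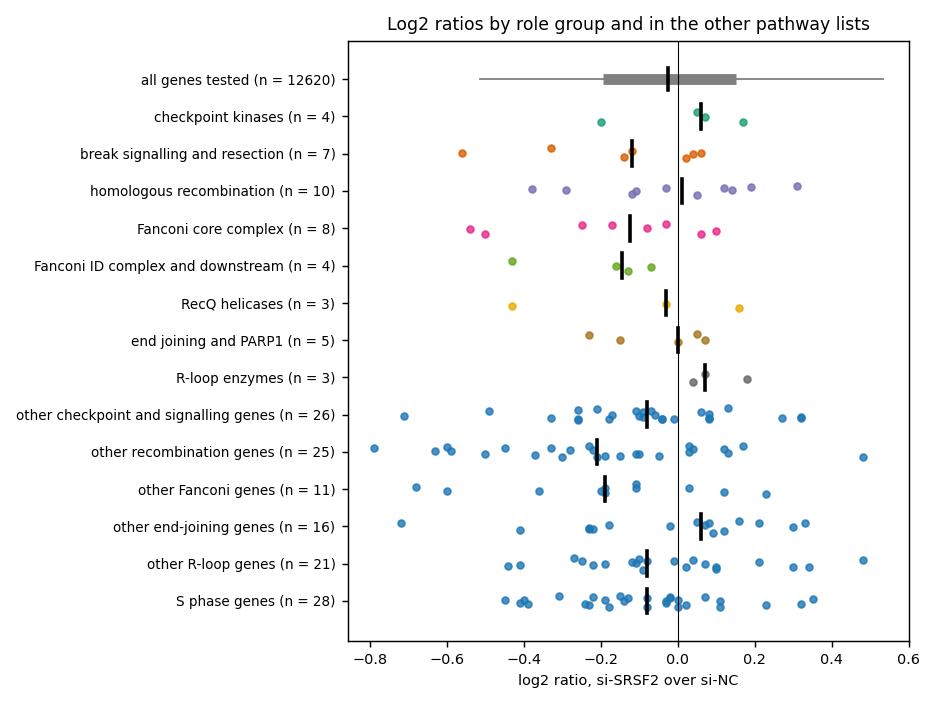
Log2 ratio of si-SRSF2 over si-NC for each gene (points) in the 8 role groups, the 5 lists of other pathway genes and the S phase genes, with the number of genes tested. Black ticks are medians, and the grey bar and line of all 12620 genes span the middle 50% and 90%. Medians lie left of that of all genes (−0.02) in break signalling, the Fanconi and RecQ groups, the S phase genes and the other lists except end joining, and right of it in the checkpoint kinases, homologous recombination, both end-joining rows and the R-loop enzymes.

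Promoter sequence was searched for motifs of cell-cycle genes, from 250 bases before to 50 bases after each RefSeq start site, on both strands. Of the 45 genes, 39 had an entry. GGCGGGAA, a form of the E2F site, was in 9 of the 39 (23.1%), against 3.16% of all promoters of this length and 6.50% of the genes tested. The 9 genes were BLM, BRIP1, FANCC, FANCD2, FANCL, RAD52, RAD54L, XRCC2 and XRCC3. Their median log2 ratio was −0.13 and that of the members without the motif −0.03. Of the 9, 6 had a ratio below 0, a share near that of all members measured (25 of 44) and of all genes tested (6790 of 12620). Below are 3 stretches of 60 bases from RefSeq on GRCh38.p14 that hold this motif and overlap no annotated exon, chosen to show genes with a lower and with a level or higher ratio, in the direction of transcription and with the motif, or its reverse complement, in capitals.
BLM, chr15:90717245-90717304, plus strand, log2 ratio −0.43: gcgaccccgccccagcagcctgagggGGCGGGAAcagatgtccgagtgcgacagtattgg
FANCC, chr9:95317336-95317395, minus strand, log2 ratio −0.50: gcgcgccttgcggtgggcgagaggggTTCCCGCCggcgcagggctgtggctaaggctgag
RAD52, chr12:949885-949944, minus strand, log2 ratio 0.12: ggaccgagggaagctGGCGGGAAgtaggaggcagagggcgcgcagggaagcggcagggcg
The match shown begins 75 bases before the start site of its window in BLM, 115 in FANCC and 235 in RAD52. BLM holds a second match just after its start site. The FANCC and RAD52 stretches lie inside the annotated spans of these minus-strand genes, which reach to 95426796 and 990053. FANCC has another window, from 95317660 to 95317959, whose start site lies upstream of the stretch shown. Of the other motifs, TTTGGCGC or TTTCGCGC was in 3 of 39 (7.69%, against 2.49% of the genes tested), TTTGAA in 4 (10.3% against 13.3%) and CCAAT in 18 (46.2% against 43.5%). Such matches describe the letters in these windows and do not show that a factor was bound.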

How the data were processed

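Poly(A) RNA of 1 si-NC and 1 si-SRSF2 library of RKO cells was sequenced. Per the labels and the study's methods, the authors aligned reads to GRCh38 with HISAT2 2.0.4 and counted them per gene, and the deposited values are raw counts by gene symbol, without normalization. The libraries were made with a stranded kit per the study, but the strand setting of the counting was not given in the sources used here.

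TMM factors from edgeR 4.0.16 (R 4.3.3) scaled the libraries, and counts became CPM. Log2 ratios of si-SRSF2 over si-NC used a pseudocount of 0.5 CPM and so understate changes of low genes. Intervals were 95% Clopper-Pearson intervals from SciPy 1.17.1 on the counts of both libraries, without the pseudocount. Genes whose mean was 1 CPM or more were tested. The other library scalings tried were total counts, upper-quartile factors, DESeq2 1.42.0 size factors and TMM without mitochondrial genes and the 20 most abundant genes, beside other pseudocounts and filters. Locations, lengths and exon overlaps came from GENCODE 44 on GRCh38. Members and lists were chosen with earlier results of these data known. All 45 members were named, and of the further pathway genes MRE11 and the 3 highest and 3 lowest ratios at a mean of at least 5 CPM. DDX39B was named after its values were seen. Single values of 2 listed genes, none of them among these highest and lowest, are not reported here. MRE11 and SEM1 were read under the older symbols MRE11A and SHFM1 after the gene table was seen. The calculations were checked on simulated data.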

Additional observations from a re-analysis of the deposited data

How the results depend on the processing

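The members' log2 ratios, their role group medians, their median and their counts of calls were recomputed under 8 alternatives: total counts, upper-quartile factors, DESeq2 size factors, TMM without mitochondrial genes and the 20 most abundant genes, a pseudocount of 0.1 or 2 CPM, all genes with reads in place of the filter, and a minimum mean of 5 CPM. The number of members with a whole interval above 0 went from 5 to 8 with upper-quartile factors, which scaled the si-SRSF2 library slightly higher. The count of members 1.5-fold lower or higher was 0 under each alternative, and the count with a whole interval below 0 was 16 or 17. The median log2 ratio of the members ran from −0.04 to −0.01. All 352 recomputed values of single members and all 64 role group medians moved by less than their counting interval or spread. Part of this was fixed in advance. The filters could not move a measured member, because the lowest mean among them was 10.5 CPM. The pseudocounts could not change the counts of intervals, which were computed without them. No paired analysis was possible because neither group has a second library, and for the same reason no replicate could be left out. A difference between transfections cannot be told apart from one between the conditions, and for members with few counts, such as RAD51D, intervals reached 0.31 on either side. The summary of the 12 Fanconi genes, the other lists, the partner ratios and the motif medians were not recomputed.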
